A study of Drosophila melanogaster with 3 samples.

Results

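The basement membrane genes are 10 genes of the fly's sheet of extracellular matrix: the collagen IV chains *vkg* and *Col4a1*, the laminin chains *LanA*, *LanB1* and *LanB2*, and *SPARC*, *Pxn*, *Ppn*, *trol* and *Ndg*. Their members were the probes that the platform annotation mapped to exactly 1 of these genes, which gave 15 probes among 11887 tested probes, and all 10 genes among 8247 measured genes. All 15 probes had a value on all 3 arrays. Wild-type *Drosophila melanogaster* embryos wounded by laser ablation were set against unwounded wild-type embryos on 3 two-colour cDNA arrays, A, B and C. The unwounded sample was labelled with Cy3 and the wounded sample with Cy5 on every array, so a dye effect of a probe and wounding cannot be told apart. The labels give no age of the embryos, no number of wounds, no time between wounding and RNA extraction, and no word on whether separate collections were used. A p-value here covers only the spread among the 3 arrays, which may be technical.

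Ratios are given as log2 per array, and a ratio of 1 is 0 on this scale. A positive value is called a high ratio. It likely means more transcript after wounding, on the basis that Cy5 is customarily the numerator and that the series title puts the wounded embryos before the unwounded ones. The sample titles have the opposite order and no source states the direction, so every high and low may have to be exchanged. The RNA was that of whole embryos, so fewer cells of a type and less RNA per cell cannot be told apart. Signal over background is unknown, because no spot intensities were used here.

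A basement membrane is a thin sheet that underlies epithelia and wraps muscles, nerves and the gut. Laminin trimers bind receptors on the cell surface and form a first network, collagen IV trimers form a second network that gives the sheet its tensile strength, and perlecan and nidogen lie between these networks. In *Drosophila* embryos most collagen IV and much of the other material is made by migrating haemocytes, the blood cells, and later by the fat body. Haemocytes are also the cells that gather at epithelial wounds.

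The basement membrane genes as a group lay close to a ratio of 1. None of the 15 probes and none of the 10 gene means passed a Benjamini-Hochberg adjusted p of 0.05 in limma, where 1.55% of all tested probes and 1.96% of all gene means did. *Ndg*, which encodes nidogen, had the lowest ratio of the 10 genes on each of the 3 arrays, with a mean log2 ratio of −0.40 ± 0.18 (SD, n = 3). The gene means of the other 9 genes lay between −0.10 and 0.05. The median of the 10 gene means was −0.0059, against −0.00017 over all genes. The median size of the mean log2 ratio, sign removed, was 0.037 for the 15 probes and 0.079 for all tested probes.

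**Figure D1:**
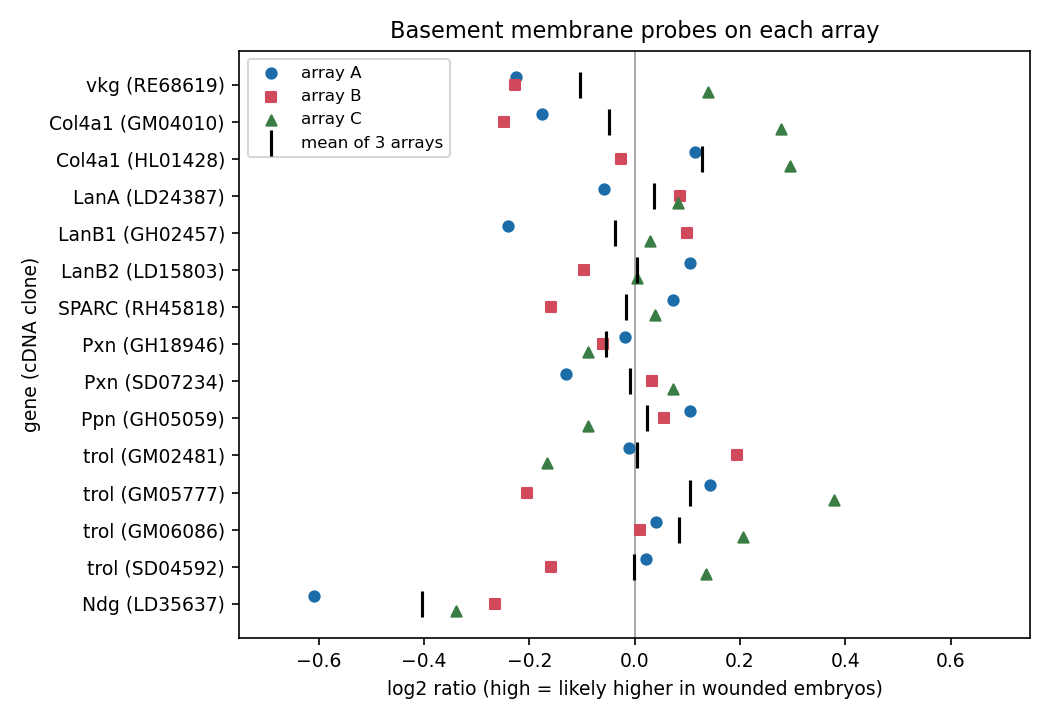
Log2 ratio (x axis) of each basement membrane probe (y axis, gene and cDNA clone) on array A (circles), B (squares) and C (triangles), with the mean of the 3 arrays as a vertical bar. The probe of *Ndg* is the lowest on each array, and most other probes have arrays on both sides of 0.

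Collagen IV of the fly is a trimer of the chains encoded by *vkg* (alpha 2) and *Col4a1* (alpha 1, formerly *Cg25C*). These genes are neighbours, with 0 other genes between them in the reference gene table of the Release 6 assembly. The *vkg* probe (RE68619) had log2 ratios of −0.23 (array A), −0.23 (B) and 0.14 (C). *Col4a1* had 2 clones. Clone GM04010 had −0.18, −0.25 and 0.28 in the same order. Clone HL01428 had 0.11, −0.03 and 0.30. All 3 collagen IV probes were above 0 on array C and below 0 on array B, while on array A they lay on both sides. The mean was −0.10 ± 0.21 for *vkg* and 0.04 ± 0.22 for the *Col4a1* gene mean (SD, n = 3). Neither passed the test (limma adjusted p = 0.593 for the *vkg* gene mean and 0.861 for that of *Col4a1*). The 95% intervals of the ratio ran from 0.797 to 1.09 for *vkg* and from 0.877 to 1.20 for *Col4a1*. *Col4a1* lay above *vkg* by 0.19, 0.09 and 0.15 on arrays A, B and C, a mean difference of 0.14 ± 0.05 (SD, n = 3). The clones of *Col4a1* differed from each other by 0.18 ± 0.14 (SD, n = 3), which is more than the difference between the genes.

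*SPARC* encodes a collagen-binding glycoprotein that haemocytes and fat body cells need to lay down collagen IV. Its probe (RH45818) had log2 ratios of 0.07 (array A), −0.16 (B) and 0.04 (C), so array B was on the other side of 0 from A and C. The mean was −0.02 ± 0.12 (SD, n = 3; limma adjusted p of the gene mean = 0.931). *Pxn* encodes peroxidasin, the haem peroxidase that crosslinks collagen IV. Its clone GH18946 had −0.02, −0.06 and −0.09, each of them below 0, and its clone SD07234 had −0.13, 0.03 and 0.07. The gene mean was −0.03 ± 0.04 (SD, n = 3; limma adjusted p = 0.800). The SD of the *Pxn* gene mean was the smallest of the 10 genes, and its 95% interval of the ratio ran from 0.892 to 1.07.

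Laminin is a trimer of an alpha, a beta and a gamma chain. The members hold 1 alpha chain gene, *LanA* (LD24387), with log2 ratios of −0.06, 0.09 and 0.08 on arrays A, B and C. A further alpha chain gene, *wb*, was placed in the list of other matrix proteins. Its gene means were −0.14, −0.07 and −0.05 on arrays A, B and C (limma adjusted p = 0.472). The beta chain gene *LanB1* (GH02457) had −0.24, 0.10 and 0.03. The gamma chain gene *LanB2* (LD15803) had 0.10, −0.10 and 0.00. *LanA* and *LanB1* were thus below 0 on array A and above 0 on arrays B and C, and *LanB2* was above 0 on array A and below it on array B. The means were 0.04 ± 0.08 for *LanA*, −0.04 ± 0.18 for *LanB1* and 0.00 ± 0.10 for *LanB2* (SD, n = 3). The differences between chains, 0.07 ± 0.10 for *LanA* less *LanB1*, 0.03 ± 0.18 for *LanA* less *LanB2* and −0.04 ± 0.28 for *LanB1* less *LanB2*, were each smaller than their SD over 3 arrays. The limma adjusted p of the gene means was 0.788 for *LanA*, 0.847 for *LanB1* and 0.983 for *LanB2*. The 95% intervals of the ratio over the 3 chains reached from 0.848 to 1.14.

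*trol* encodes perlecan, a large heparan sulphate proteoglycan, and had 4 clones. Clone GM06086 had log2 ratios of 0.04, 0.01 and 0.21 on arrays A, B and C, above 0 on each. Clone GM05777 had 0.14, −0.20 and 0.38, the highest value of any of the 15 probes on arrays A and C. Clone SD04592 had 0.02, −0.16 and 0.13, with array B apart from the others in the same way. Clone GM02481 ran against these, with −0.01, 0.19 and −0.17. The gene mean was 0.05 ± 0.09 (SD, n = 3; limma adjusted p = 0.719), with a 95% interval of the ratio from 0.932 to 1.15. The highest and the lowest clone by mean, GM05777 and SD04592, differed by 0.11 ± 0.15 (SD, n = 3). A further clone, GM25163, is annotated to both *trol* and *mil* and was not counted as a member. Its log2 ratios were 0.09, 0.05 and 0.34 (arrays A to C; limma adjusted p = 0.345).

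*Ppn* encodes papilin, a matrix glycoprotein related to ADAMTS proteases that is deposited in embryonic basement membranes. Its probe (GH05059) had log2 ratios of 0.10, 0.06 and −0.09 on arrays A, B and C. Array C was thus below 0 and the others above it, and the mean was 0.02 ± 0.10 (SD, n = 3; limma adjusted p of the gene mean = 0.877).

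*Ndg* encodes nidogen, which binds both laminin and collagen IV. Its probe (LD35637) had log2 ratios of −0.61 (array A), −0.27 (B) and −0.34 (C). All 3 values were below 0 and were the lowest of the 15 probes on their array. On array A the value lay outside the central 95% of tested probes, whose lower bound there was −0.49, and on arrays B and C it lay inside the bounds of −0.54 and −0.40. The mean log2 ratio was −0.40 ± 0.18 (SD, n = 3), a ratio of 0.756 with a limma 95% interval from 0.654 to 0.873. It did not pass the test over all probes (limma adjusted p = 0.0802, unadjusted p = 0.00372), nor did the gene mean over all genes (limma adjusted p = 0.0723). It passed with arrays weighted by their quality, where array A had the highest weight (limma adjusted p = 0.0495), and over the 14 alternatives the limma adjusted p ran from 0.0495 to 0.322. Without array A the mean was −0.30 (limma adjusted p = 0.322). Of all tested probes, 2.43% had a lower mean. Only 1 clone of *Ndg* was on the array, so no other probe repeats the value.

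The clone of *Ndg* comes from the LD cDNA library, whose 2805 tested probes had a median log2 ratio of −0.0092. Of these LD probes, 1.96% had a lower mean than that of *Ndg*. Spots named for plant genes, which are controls, had a median of −0.23, and 32.8% of the 119 with a value on every array lay below the *Ndg* probe. The part of such an offset in the *Ndg* ratio was not tested. The probes of *LanB1* and *Ppn* and 1 probe of *Pxn* are GH clones (library median −0.030), and that of *SPARC* is an RH clone (library median 0.076). The mean of the *SPARC* probe lay 0.09 below its library's median and that of *Ppn* 0.05 above.

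**Figure D2:**
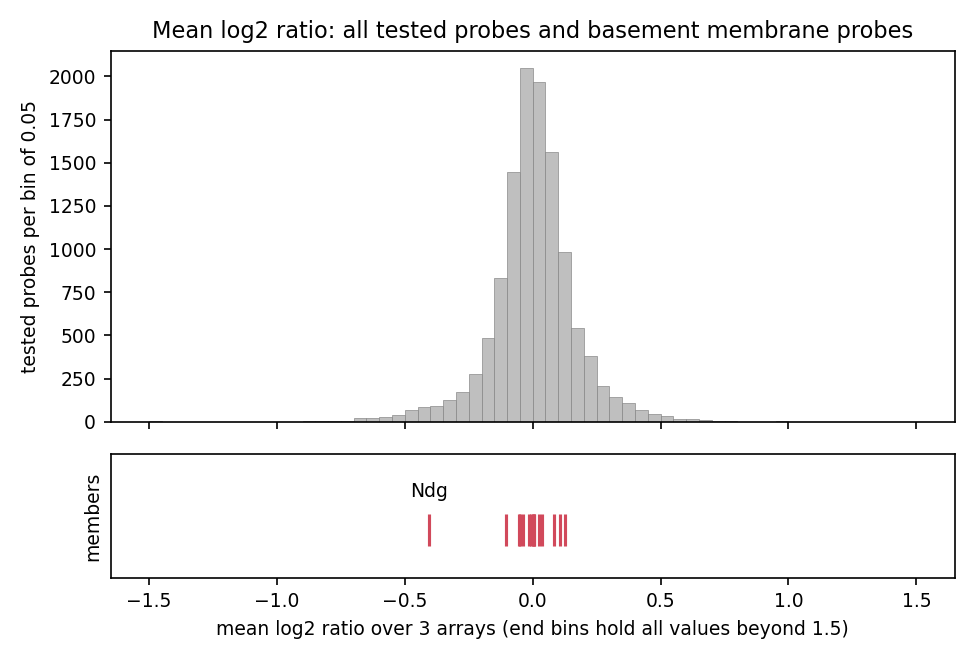
Number of tested probes per bin of 0.05 in mean log2 ratio over 3 arrays (upper panel), and the means of the 15 basement membrane probes as ticks on the same axis (lower panel). The ticks sit between −0.10 and 0.13 except that of *Ndg* at −0.40.

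Agreement between arrays was limited. Among the 15 probes, 3 had the same sign on all arrays (GH18946 of *Pxn*, GM06086 of *trol* and the probe of *Ndg*), where 41.7% of all tested probes did. Of the gene means, 2 of 10 had 1 sign (*Pxn* and *Ndg*), where 41.5% of all gene means did. One probe of the 15, that of *Ndg*, had an unadjusted p under 0.05 in limma, where 18.4% of all tested probes did. The median SD over arrays was 0.15 for the 15 probes and 0.11 for all tested probes. On array A, 7 of the 15 probes were above 0, on array B 6 and on array C 11, where 50.5%, 53.7% and 49.0% of all tested probes were. The median over the 15 probes was −0.01, −0.06 and 0.07 for arrays A, B and C. Arrays A and C put 9 of the 15 probes on the same side of 0, arrays A and B 6, and arrays B and C 6, where 66.0%, 59.8% and 57.2% of all tested probes were. Several of these probes share a gene, and all share the same RNA on each array, so they are not independent.

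The spread between arrays still bounds the size of the mean measured ratio. It does not bound a dye effect or the loss of a difference through weak signal, so the change in transcript itself is not bounded. For 9 of the 10 genes the 95% interval of the gene mean lay within a 1.5-fold difference in either direction. Over these 9 genes the lowest bound was a ratio of 0.797 and the highest 1.20. The interval of *Ndg* reached a ratio of 0.657, just past that limit, and lay within a 2-fold difference. The intervals are those of single genes, not adjusted for the number of genes, and cover only the spread between these 3 arrays. The smallest limma adjusted p among the 9 gene means was 0.593.

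**Figure D3:**
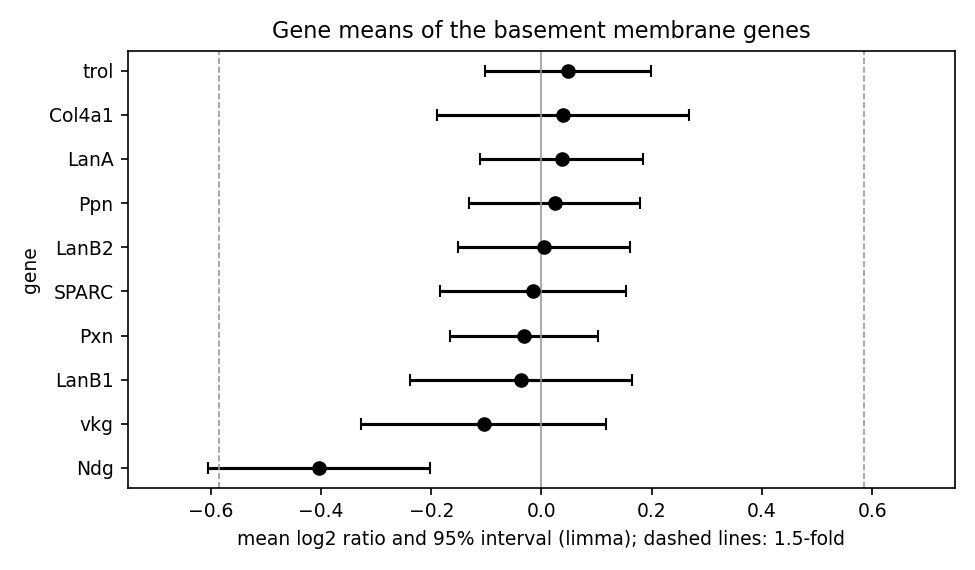
Mean log2 ratio (points) of each basement membrane gene with its limma 95% interval (bars), with genes on the y axis in order of their means and dashed lines at a 1.5-fold difference. The interval of *Ndg* alone does not cross 0, and its lower end alone passes a dashed line.

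The genes that act with the basement membrane were taken as lists of receptors, of other matrix proteins and of processing and remodelling enzymes. Of 8 measured receptor genes, 0 passed the test in either direction, where 1.96% of all gene means did. The median of the gene means of these receptors was 0.09. The lowest p in this list was that of *scb*, an integrin alpha subunit gene, at 0.25, 0.22 and 0.19 (arrays A to C; limma adjusted p = 0.114). *Dg*, which encodes dystroglycan, a receptor of laminin and perlecan, followed at 0.06, 0.15 and 0.25 (limma adjusted p = 0.274). Both were above 0 on all arrays. Of 10 measured genes of other matrix proteins, 0 passed, against the same 1.96% of all gene means, and the median was 0.02. *NetB*, which encodes a netrin with laminin-like domains, had −0.30, −0.61 and −0.13, all below 0 (limma adjusted p = 0.149). *prc*, which encodes pericardin, a collagen-like protein of the heart's matrix, had 0.09, 0.21 and 0.41 over its 2 spots of 1 clone, all above 0 (limma adjusted p = 0.187).

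Among 11 measured genes of collagen processing, secretion and remodelling, 1 probe had a high and 1 a low ratio past the threshold, where 0.513% and 1.03% of all tested probes did. The high one was *Loxl1*, a lysyl oxidase gene whose family crosslinks collagen, at 0.63, 0.71 and 0.50 (arrays A to C; LP04931; limma adjusted p = 0.0441). The low one was *AdamTS-A*, which encodes a secreted metalloprotease, at −0.69, −0.57 and −0.38 (GH16393; limma adjusted p = 0.0468). *Mmp2*, a matrix metalloproteinase gene chosen after its values were seen, had −0.30, −0.29 and −0.47 and did not pass (SD03462; limma adjusted p = 0.0680). The median of the 11 gene means was −0.08, and 6 had an unadjusted p under 0.05 in limma, where 18.4% of all gene means did. These 6 lay on both sides of 0. The list was chosen with earlier results of these data known, so the count is a description and not a test of the list. *PH4alphaEFB*, the prolyl hydroxylase gene, *Plod*, the lysyl hydroxylase gene, and *Tango1*, needed for collagen export, had gene means of 0.09, 0.14 and −0.09, and none of them passed. *Loxl2*, a further lysyl oxidase gene, lay at −0.22, −0.58 and −0.05 (limma adjusted p = 0.248), and *Crag*, needed for polarized basement membrane secretion, had 0.23, 0.33 and 0.08 (limma adjusted p = 0.181). Neither passed the test. The calls of *Loxl1* and *AdamTS-A* were lost when any 1 array was left out, with limma adjusted p from 0.0567 to 0.234 for *Loxl1* and from 0.0625 to 0.240 for *AdamTS-A*. In these fits the mean log2 ratio lay between 0.57 and 0.67 for *Loxl1* and between −0.63 and −0.48 for *AdamTS-A*. Fits with fewer arrays also have less power. Both calls were also lost with clone libraries centred and in a test of linear ratios.

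Markers of the cells that make basement membrane were taken as lists of haemocyte and fat body genes. The age of the embryos is not given, and whether each listed gene is expressed in these cells at that age was not tested. The ratio of a gene with little transcript may come from background signal. Of 14 probes of 12 measured genes in the haemocyte list 0 passed, where 1.55% of all tested probes did. The median of the gene means in this list was −0.0095, with −0.04, 0.06 and −0.06 for arrays A, B and C. *Fer3* (−0.16, limma adjusted p = 0.251) and *PPO1*, the prophenoloxidase gene of crystal cells (−0.14, limma adjusted p = 0.268), had the lowest p of the list. The symbol *Fer3* names a bHLH transcription factor gene, so its place among haemocyte markers is doubtful and its value is not read as one of haemocytes. *Hml*, which encodes the clotting factor hemolectin, had −0.28, 0.06 and 0.22 (arrays A to C). *eater*, a phagocytic receptor gene, had 0.19, 0.01 and 0.41, the highest gene mean of the list at 0.20 (limma adjusted p = 0.298). *NimC1*, which encodes another surface receptor of plasmatocytes, had 0.01, 0.04 and 0.27 as the mean of 3 spots of 1 clone (limma adjusted p = 0.495). Its spots differed, with means of 0.39 for LP05465_ReAmp (limma adjusted p = 0.0667), 0.12 for LP05465 and −0.19 for LP05465_rdnd. *Hml*, *eater* and *NimC1* were thus highest on array C, as the collagen IV probes were, while *PPO1*, the prophenoloxidase genes *PPO2* and *PPO3*, and *Pvr* were lowest there. In the same list *crq* had −0.01, 0.07 and 0.06 and *drpr* had −0.06, 0.05 and −0.06 (arrays A to C). Both were highest on array B. The genes *srp* and *ush*, which are also in this list, were lowest on array C. The part of any of these genes in the collagen IV ratios was not tested. The GATA factor gene *srp*, which specifies haemocytes and fat body, had 0.10, 0.08 and 0.07, and its cofactor gene *ush* had 0.04, 0.18 and −0.06. Neither passed the test (limma adjusted p = 0.460 and 0.723), and the other 3 regulators listed were not analysed here. Of 7 probes of 5 measured genes in the fat body list, 1 had a low ratio past the threshold, where 1.03% of all tested probes did. It was that of *Fbp2*, which encodes a fat body protein, at −0.41, −0.57 and −0.47 (LP07806; limma adjusted p = 0.0441). The median of the gene means in the fat body list was 0.10, with −0.05, 0.12 and −0.05 for arrays A, B and C. The *Fbp2* call was lost when any 1 array was left out (limma adjusted p from 0.0750 to 0.235), with clone libraries centred and in a test of linear ratios. With 1 array left out the mean of *Fbp2* lay between −0.52 and −0.44. The larval serum protein gene *Lsp2* was above 0 on each array, at 0.13, 0.25 and 0.37 (limma adjusted p = 0.135). Gene means were 0.12 for *Fbp1*, 0.10 for *apolpp*, which encodes the lipid carrier apolipophorin, and −0.04 for *CtsL1*. The spots of *apolpp* differed, with means of 0.27 for LP11945, 0.02 for LP11945_ReAmp and 0.00 for GH18004. *CtsL1* was listed under its older symbol *Cp1*, and whether it marks the fat body was not tested.

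**Figure D4:**
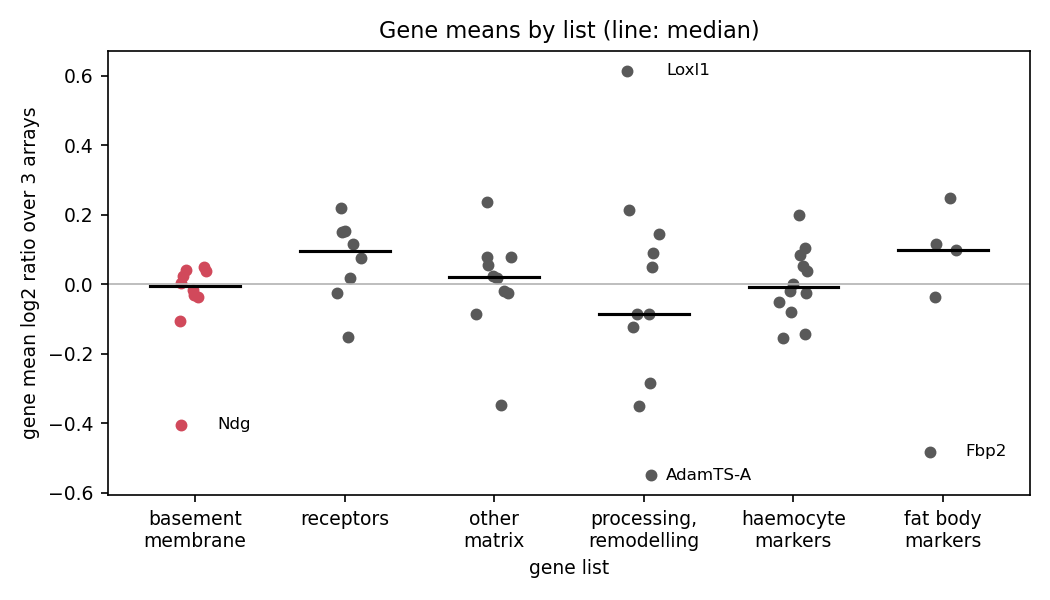
Mean log2 ratio over 3 arrays of each measured gene (points), by gene list on the x axis, with the median of the list as a line. The basement membrane genes other than *Ndg* lie between −0.10 and 0.05, and *Loxl1* and *AdamTS-A* mark the ends of the processing and remodelling list.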

How the data were processed

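The authors deposited 1 score per probe and array, all below 0, with medians of −1.001, −1.01 and −0.997 for arrays A, B and C and a maximum of −0.01. From these values the score was taken to be a linear ratio of both colours with its sign changed, centred near 1 and floored. How the authors scanned, background-corrected and normalized the arrays is not given in the sources used. The log2 of minus the value was taken. Of 12144 rows, 160 control spots were left out, and 97 of the other 11984 probes lacked a value. Gene names came from the platform annotation, updated by Entrez identifier through the Release 6 gene table. All 15 member probes matched. Probe values and gene means were fitted with an intercept in limma 3.58.1 under R 4.3.3, with Benjamini-Hochberg adjustment over all 11887 probes or 8247 genes. The prior SD was 0.116 with 3.38 prior degrees of freedom. With 3 arrays, the smallest p of an exact sign-flip test is 0.25. The number of arrays limits the precision, and the depth is not defined for arrays. The fit was tested on simulated data. The simulated probes were independent and normal, with no dye, clone library or shared clone effect, so the fit's behaviour under such effects was not tested. The members and lists were chosen with earlier results of these data known. All members are named, and in each list the genes past the threshold or else the 2 of smallest p. *wb*, *PH4alphaEFB*, *Plod*, *Tango1*, *Loxl2*, *Crag*, *Mmp2*, *Hml*, *eater*, *NimC1*, *PPO2*, *PPO3*, *Pvr*, *crq*, *drpr*, *Lsp2*, *Fbp1*, *apolpp* and *CtsL1* fall outside this rule and were named after their values were seen. No sequences of members were used here.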

Additional observations from a re-analysis of the deposited data

How the results depend on the processing

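The 15 probes and the 10 gene means were refitted under 14 alternatives: centring, scaling, quantile normalization, values on 2 arrays, robust moderation, array weights, gene means, the linear ratio, added probes that name several genes, an adjusted p of 0.10, leaving out each array, and centred clone libraries, the last chosen after seeing the data. Under 12 of them 0 member probes and 0 member genes passed. With array weights, and at an adjusted p of 0.10, 1 probe and 1 gene passed, both times *Ndg*. The sign of *Ndg* held under all 14, with means from −0.47 to −0.30. Of the 10 gene means, 5 changed sign under at least 1 alternative, each moving by less than its SD over arrays. The median of the 10 ran from −0.04 to 0.02. In the haemocyte list 1 probe passed with array weights and 1 at an adjusted p of 0.10. The share of all probes and genes that passed under these settings is not given here. The counts of members and list probes under them thus have no background to be read against. The processing list and the fat body list had 0 calls on the linear ratio and 0 with centred clone libraries, and 0 to 0 calls when any 1 array was left out. The cause was not tested. Each array sets a wounded against an unwounded sample, so the fitted ratio is already a comparison within the array. With 1 group of arrays, no pairing between arrays was possible.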
